A study of Mus musculus with 2 samples.

Results

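Genes of fatty acid uptake and oxidation were described in mouse kidney cortex, as a named set of 38 genes among the 31053 genes counted. They were found by symbol in the feature lists, and all 38 had a unique molecular identifier (UMI) in kept cells of each library. By role, 4 serve uptake or activation at entry (Cd36, Slc27a2, Lpl and Acsl1), 20 are mitochondrial, 10 are peroxisomal and 4 regulate or store (Ppara, Ppargc1a, Pdk4 and Mogat1). Single-cell RNA was counted in 1 PT I-PpoI library and in 1 wild-type library, both from kidney cortex at 16 weeks of age. In PT I-PpoI the endonuclease I-PpoI is expressed specifically in proximal tubule epithelium. This homing endonuclease cuts both strands of genomic DNA. The promoter that drives it, the number of animals behind each library and any further treatment are not given in the sources used here.

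The proximal tubule (PT), which reabsorbs most of the filtrate, draws its energy mainly from fatty acids. Lipoprotein lipase (Lpl) frees them from triglyceride, the scavenger receptor Cd36 and the transport protein Slc27a2 bring them in, and acyl-CoA synthetases activate them. Carnitine carries long chains into mitochondria, where beta-oxidation shortens them and passes electrons to the respiratory chain, while peroxisomes shorten very long and branched chains first. The nuclear receptor Ppara and its coactivator Ppargc1a (PGC-1 alpha) switch on many of these genes.

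The libraries held 93257620 UMIs for PT I-PpoI and 107977310 for wild type. In all, 5086 cells were kept in PT I-PpoI, against 11927 in wild type, with medians of 11186 UMIs per cell in PT I-PpoI against 2701 in wild type. The kept cells of the 2 libraries shared 22 barcodes. PT-like cells numbered 170 in PT I-PpoI (3.34% of kept cells), against 5905 in wild type (49.5%), and all 17 PT markers were read in both. Cells of the first segment (S1-like) made up 83.5% of the PT-like class in PT I-PpoI, against 34.9% in wild type, while S3-like cells numbered 2 in PT I-PpoI, against 905 in wild type, and S2-like cells numbered 1 in PT I-PpoI, against 717 in wild type. A cluster of shallow PT-like cells, 7 from PT I-PpoI and 1179 from wild type, had no clear segment. Free RNA, which enters droplets from outside the cell, was estimated at 5.07% of PT-like UMIs in PT I-PpoI, against 21.7% in wild type, from a profile of barcodes ranked below the cells. From barcodes of 100 or fewer UMIs it was 4.84% in PT I-PpoI, against 9.06% in wild type, and subtraction below uses the ranked profile unless the low-barcode profile is named. Levels below are in CPM, UMIs of a gene per 1000000 UMIs of a class in a library, and each ratio is the log2 of the PT I-PpoI level over the wild-type level. With 1 library per group no test was possible, and the 95% intervals cover counting error only, not differences between animals. Fewer cells of a segment and less RNA per cell cannot be told apart in values summed over all PT-like cells.

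Within the wild-type library many members differed in level between the first and the last segment of the PT. Cluster 36, an S3-like cluster with Slc22a7, Cyp7b1 and Mep1b among its leading genes, was set against cluster 7, the deeper S1-like cluster. They held 4.61% and 14.6% of wild-type PT-like cells, and the S3-like and S1-like levels of this contrast are theirs alone. The larger S3-like cluster 38 (10.7%) and S1-like cluster 8 (20.3%) were left out of it. A member was counted as past 2-fold if it also had 10 CPM in the higher cluster and 10 UMIs in all. Of 37 members with these minima, 15 were higher in S3 by 2-fold or more, against 11.7% of all genes, and 7 were lower, against 22.7% of all genes. Their median ratio was 0.79, beside −0.23 over all genes. Of the uptake members 3 of 4 were higher in S3, of the peroxisomal members 6 of 10 and of the mitochondrial members 5 of 20.

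The medium-chain synthetase gene Acsm3 had 1100 CPM in S3-like and 5.17 CPM in S1-like wild-type cells, a log2 ratio of 7.72. Mogat1, which makes diacylglycerol for storage, stood at 214 CPM in S3-like against 2.41 in S1-like cells (6.44), and Cd36 at 455 CPM in S3-like against 7.12 in S1-like cells (5.99). Lpl followed at 1142 CPM in S3-like against 77.7 in S1-like cells (3.88). All 4 were far lower in the first segment. Peroxisomal Crot, which makes acylcarnitines for export, had 929 CPM in S3-like against 84.5 in S1-like cells (3.46), and medium-chain dehydrogenase gene Acadm 2379 CPM in S3-like against 272 in S1-like cells (3.13). Slc27a2, at 2819 CPM in S3-like against 358 in S1-like cells (2.98), Acadl (2.47), the bifunctional enzyme gene Ehhadh (2.16) and the isomerase gene Eci2 (2.05) were on the same side. Peroxisomal thiolase Acaa1b peaked in the other S3-like cluster, at 682 CPM in cluster 38 against 191 CPM in cluster 36.

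A smaller group ran the other way, from S1 down to S3. The mitochondrial thiolase gene Acaa2 had 18.6 CPM in S3-like and 453 CPM in S1-like wild-type cells (−4.59), and the long-chain synthetase gene Acsl1 had 19.7 CPM in S3-like against 254 in S1-like cells (−3.67). The regulator genes Ppargc1a (9.83 CPM in S3-like against 91.3 in S1-like cells, −3.18) and Ppara (11.5 CPM in S3-like against 39.0 in S1-like cells, −1.74) were lower in S3 as well. Genes of the trifunctional protein were nearer to level, with Hadha at 78.1 CPM in S3-like against 80.8 in S1-like cells (−0.05) and Hadhb at −0.45. The electron transfer genes differed among themselves, with Etfdh at 0.07, Etfa at 0.85 and Etfb at 1.09, past 2-fold higher in S3.

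**Figure D1:**
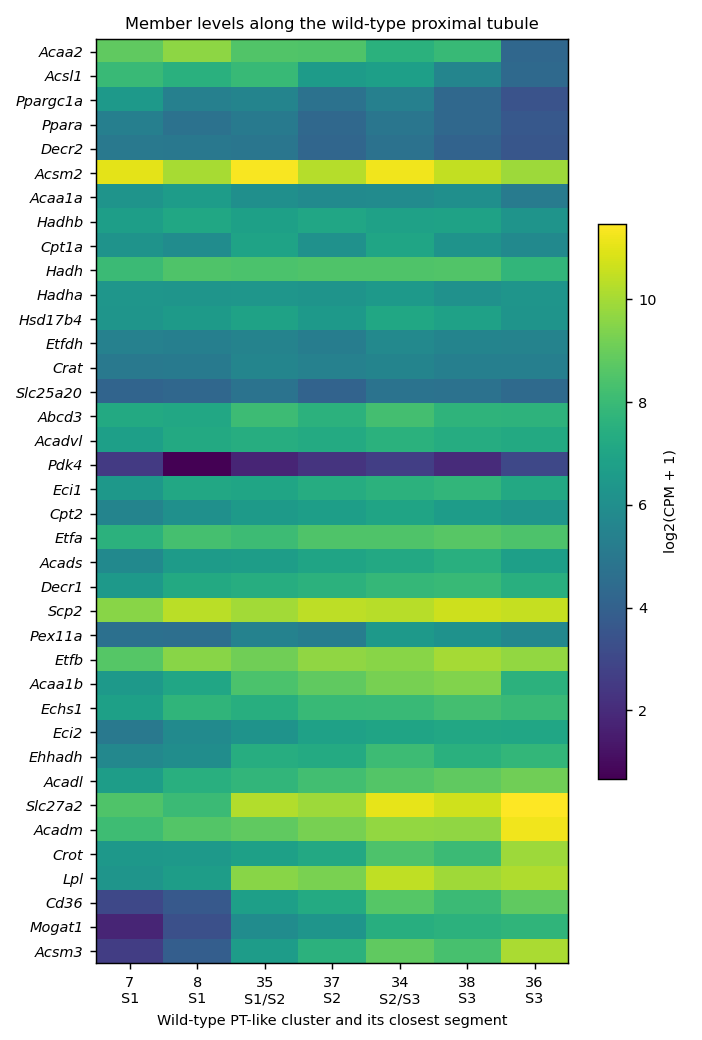
Level of each member in 7 PT-like clusters of the wild-type library, as log2(CPM + 1), with clusters from S1 at the left to S3 at the right and members ordered by the ratio of cluster 36 over cluster 7. Acsm3, Mogat1, Cd36 and Lpl at the bottom brighten towards S3, with Acsm3 at 5.17 CPM in cluster 7 and 1100 CPM in cluster 36, while Acaa2 and Acsl1 at the top darken.

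Promoter windows of Cd36 and Mogat1 are shown because both genes have this late-segment pattern and each holds a near match to the binding element of PPAR receptors. Windows run from 250 bases before to 50 after the RefSeq transcript start (GRCm38.p6, the patch release of mm10), written 5′ to 3′ on the gene's strand, with the matching 13 bases in capitals. Cd36 is at chr5:17835847-17836146 on the minus strand and Mogat1 at chr1:78510810-78511109 on the plus strand. The Cd36 window stands at a RefSeq start inside the gene, whose outermost start in GENCODE M21 is chr5:17888801. Sequence at that outer start is not shown.
Cd36: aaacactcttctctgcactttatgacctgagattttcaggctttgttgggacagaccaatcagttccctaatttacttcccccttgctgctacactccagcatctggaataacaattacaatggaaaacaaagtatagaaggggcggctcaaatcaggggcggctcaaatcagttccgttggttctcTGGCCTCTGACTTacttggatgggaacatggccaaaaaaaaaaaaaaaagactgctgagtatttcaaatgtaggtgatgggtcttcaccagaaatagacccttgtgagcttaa
Mogat1: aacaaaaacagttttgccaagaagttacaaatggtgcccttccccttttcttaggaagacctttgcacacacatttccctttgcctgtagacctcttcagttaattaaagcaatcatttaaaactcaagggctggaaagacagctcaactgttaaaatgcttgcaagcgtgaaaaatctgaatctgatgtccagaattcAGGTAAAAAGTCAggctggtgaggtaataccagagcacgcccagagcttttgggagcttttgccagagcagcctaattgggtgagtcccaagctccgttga
The element searched was a direct repeat of AGGTCA with any 1 base between the copies, on both strands, with overlapping matches counted once per window. Exact matches were found in 0 of 36 member windows and 13 of 32851 windows in the table (0.0396%). With up to 2 mismatches it was found in 5 of 36 windows (13.9%), those of Cd36, Mogat1, Echs1, Etfa and Slc25a20, and in 1268 of all windows (3.86%). Of the 15 members past 2-fold higher in S3, Cd36, Mogat1 and Echs1 (log2 ratio 1.19) held such a match. None was found for Acsm3, Crot, Acadm, Slc27a2, Acadl, Ehhadh, Eci2, Acaa1b, Etfb, Pex11a and Scp2. Lpl had no window and could not be searched. Etfa and Slc25a20 hold a match but were short of 2-fold higher in S3. The Cd36 match lies on the strand opposite to the one printed, where it reads AAGTCAGAGGCCA, and starts 63 bases before the transcript start, and the Mogat1 match reads AGGTAAAAAGTCA and starts 51 bases before it. A match is a description of letters and not a binding site.

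In PT-like cells as a whole, 8 of 37 members with the minima were lower by 2-fold or more in PT I-PpoI, and 2.96% of all genes were. None of the 37 was higher by 2-fold or more, where 7.56% of all genes were. The 8 were Mogat1, Lpl, Acsm3, Acaa1b, Ehhadh, Slc27a2, Cd36 and Acadl, and Pdk4 did not reach the minima. Over all 38 members the median ratio was −0.40 (−0.79 to −0.23, the spread among members) with 28 lower, beside a median of 0.34 and 28.7% lower over all genes. Scaling by trimmed mean of M-values (TMM) shifts every PT-like ratio by −0.32, so the members' median is −0.72 relative to it and the 10 members above 0 become 5 (Hadha, Acaa1a, Ppara, Ppargc1a and Pdk4).

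**Figure D2:**
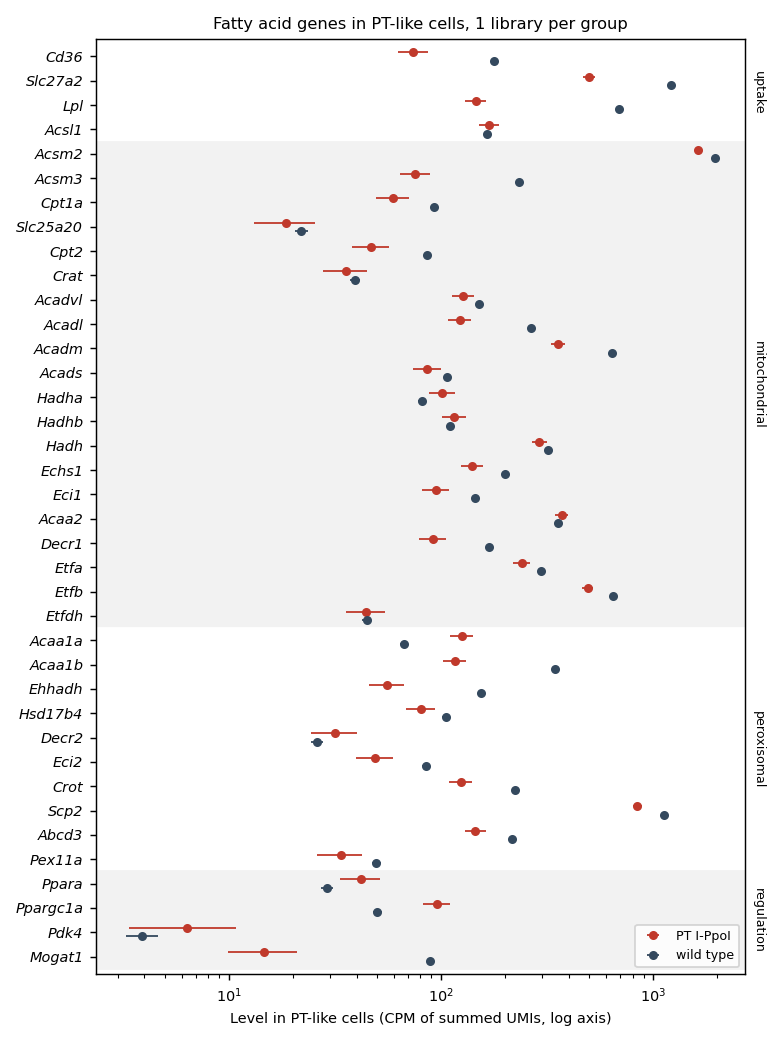
Level of each of the 38 members in PT-like cells on a log axis in CPM, with PT I-PpoI in red and wild type in dark blue, and bars for exact Poisson 95% intervals. Lpl (146 CPM in PT I-PpoI against 693 in wild type) and Mogat1 (14.6 CPM in PT I-PpoI against 88.6 in wild type) stand furthest apart, and Acaa1a (125 CPM in PT I-PpoI against 66.8 in wild type) is reversed.

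Among the role groups, uptake had the lowest median ratio in PT-like cells, −1.27 (range −2.25 to 0.03), with 3 of 4 members past 2-fold lower (Lpl, Slc27a2 and Cd36). Lpl (ENSMUSG00000015568, chr8:68880491-68907448 on the plus strand of mm10) had 146 CPM in PT I-PpoI, against 693 CPM in wild type, a ratio of −2.25 (−2.42 to −2.08). Slc27a2, which also activates very long chains, had 498 CPM in PT I-PpoI against 1213 in wild type, −1.28 (−1.38 to −1.19). Cd36 (ENSMUSG00000002944, chr5:17781690-17888801, minus strand) had 74.1 CPM in PT I-PpoI against 178 in wild type, −1.26 (−1.51 to −1.03). Acsl1, whose wild-type level falls along the tubule, stood level at 169 CPM in PT I-PpoI against 166 in wild type (0.03, and −0.29 relative to the TMM shift). Few PT I-PpoI cells carried Cd36 or Lpl reads. Cd36 was read in 18 of 170 cells, of which 1 cell held 29.0% of the 152 UMIs, and Lpl in 42 cells, of which 1 held 18.7%, so the counting intervals are too narrow. The 14 endothelial markers, a cell type that also uses Cd36, summed in PT-like cells to 52.7 CPM for PT I-PpoI against 44.5 for wild type, with 0 of 14 at 0 in either library, and their part in the Cd36 value was not tested.

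S1-like cells numbered 142 in PT I-PpoI, against 2061 in wild type, and within them 2 of 34 members were past 2-fold lower, where 0.892% of all genes were, and 0 were higher, where 3.35% of all genes were. The 2 were Lpl and Ehhadh. Lpl stood at 20.0 CPM in PT I-PpoI, against 84.2 CPM in wild type (34 UMIs against 1018), −2.05 (−2.61 to −1.58). It stood at −2.08 in cluster 7 and −1.26 in cluster 8, and at 2.64 CPM in PT I-PpoI against 53.7 in wild type after free RNA was subtracted (5.00 against 70.5 with the low-barcode profile). T cells, a measure of free RNA, had 9.66 CPM in PT I-PpoI against 69.4 in wild type, and the S1-like levels before subtraction were not far above it in either library. The 12 thick ascending limb markers summed to 643 CPM in S1-like cells of PT I-PpoI against 368 in wild type, with 1 of 12 at 0 in each library. Slc27a2 had 189 CPM in PT I-PpoI against 331 in wild type, −0.80 (−0.97 to −0.64), short of 2-fold. Cd36 had 2 UMIs in PT I-PpoI against 102 in wild type there, below the minimum of 10 CPM in both libraries. Acsl1 stood at 186 CPM in PT I-PpoI against 234 in wild type, −0.33. S1-like wild-type cells also carried more late-segment RNA. The 8 S2 markers summed to 227 CPM in PT I-PpoI, against 691 CPM in wild type, and the 12 S3 markers to 248 CPM in PT I-PpoI against 384 in wild type, with Slc7a13, Slc22a7 and 4 more at 0 in PT I-PpoI. The part of these marker lists in the Lpl value was not tested.

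When wild-type clusters were weighted to the share of UMIs that each held in PT I-PpoI, 0 of 37 members were past 2-fold lower, with 0.49% of all genes, and 0 past 2-fold higher, with 3% of all genes. Lpl then stood at 146 CPM in PT I-PpoI against 263 in wild type (−0.85), Slc27a2 at 498 CPM in PT I-PpoI against 621 in wild type (−0.32), and Cd36 turned to 74.1 CPM in PT I-PpoI against 62.2 in wild type (0.26). The median over all members was −0.01, beside 0.24 over all genes. Medians were −0.37 for uptake, 0.03 for mitochondrial and −0.06 for peroxisomal members. Cluster 34, between S2 and S3, allowed a direct look at 9 cells of PT I-PpoI and 600 of wild type. There Cd36 had 630 CPM in PT I-PpoI against 391 in wild type (128 UMIs against 3312, 0.69), Slc27a2 2539 CPM in PT I-PpoI against 2129 in wild type (0.26), Acsm3 591 CPM in PT I-PpoI against 447 in wild type (0.41) and Lpl 1063 CPM in PT I-PpoI against 1392 in wild type (−0.39). No other PT-like cluster held more than 16 Cd36 UMIs in PT I-PpoI. The cell with the largest share of Cd36 UMIs, given above, was thus among these 9 and carried a large part of this value. Furthest from 0 was Pdk4, at 24.6 CPM in PT I-PpoI against 5.44 in wild type (5 UMIs against 46, 2.30, 0.49 to 3.50). Furthest below 0 was Acaa2, at 64.0 CPM in PT I-PpoI against 189 in wild type (13 UMIs against 1600, −1.51, −2.48 to −0.79), and Acsl1 stood at −0.93 (−2.004 to −0.15). Acaa2 and Acsl1 are both lower in S3-like than in S1-like wild-type cells, and whether the cells of cluster 34 match in segment position between the libraries was not tested. In cluster 35, between S1 and S2 and also with 9 PT I-PpoI cells, Lpl stood at 228 CPM in PT I-PpoI against 756 in wild type (13 UMIs against 4016, −1.68). Etfa stood at −1.46 (−3.22 to −0.37), Acsm2 at −1.07 (−1.44 to −0.74) and Cd36 at −0.83 (−3.33 to 0.51) there. Acaa1b stood at −1.36 (−2.78 to −0.42) and Acadl at −1.18 (−2.94 to −0.09) in cluster 35, whereas Ppargc1a stood at 1.52 (0.09 to 2.49). Acaa1a had 1 UMI in PT I-PpoI in this cluster, at −1.32 (−7.21 to 0.59).

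**Figure D3:**
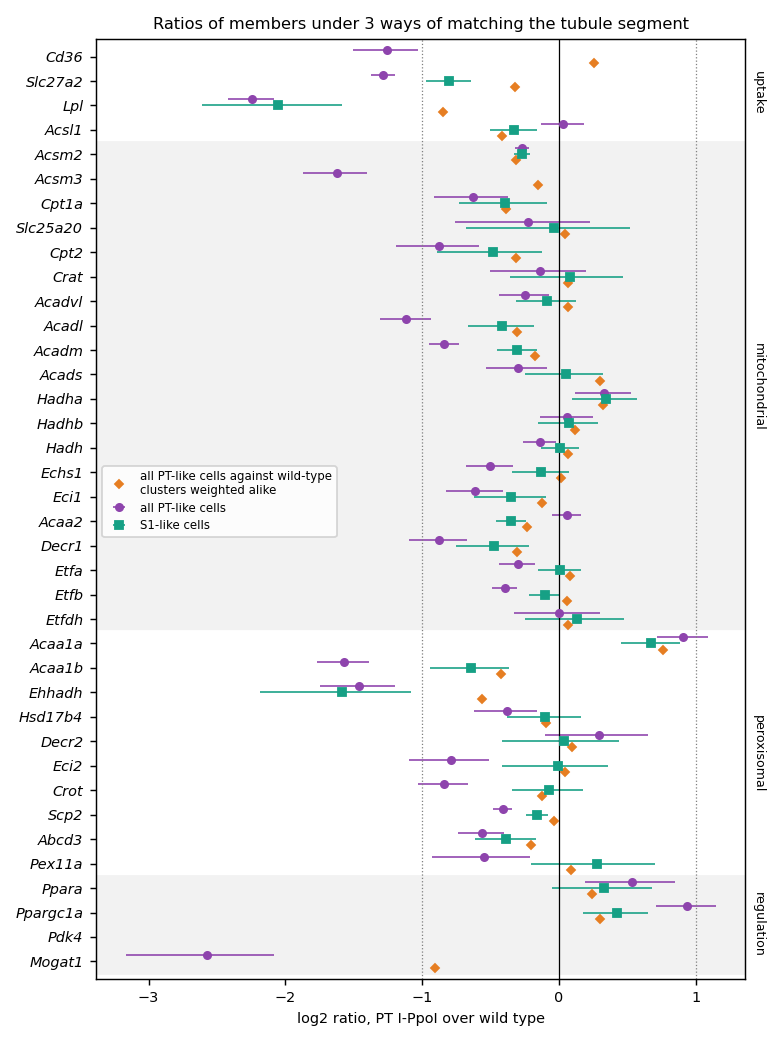
Log2 ratio of PT I-PpoI over wild type for each member in all PT-like cells, in S1-like cells and in all PT-like cells against wild-type clusters weighted alike, with bars for 95% counting intervals and dotted lines at 2-fold. In all PT-like cells 8 members lie left of −1, in S1-like cells only Lpl and Ehhadh do among members with the minima, and against the weighted wild type none does.

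Mitochondrial members differed less. Of 20, Acsm3 and Acadl were past 2-fold lower. Their median was −0.30 (−0.63 to −0.14) in PT-like cells and −0.12 in S1-like cells, and their summed level was 4527 CPM in PT I-PpoI, against 5957 CPM in wild type. Acsm3 had 75.6 CPM in PT I-PpoI against 234 in wild type, −1.63 (−1.87 to −1.40), and in S1-like cells 0 UMIs in PT I-PpoI against 92 in wild type. Of the 155 Acsm3 UMIs of PT I-PpoI, 120 came from the 9 cells of cluster 34 and 28 from the 2 cells of cluster 36. Its counting interval is therefore too narrow. Acadl, a long-chain dehydrogenase gene, had 122 CPM in PT I-PpoI against 266 in wild type, −1.12 (−1.31 to −0.94), and 91.1 CPM in PT I-PpoI against 122 in wild type in S1-like cells (−0.41). Just short of 2-fold lay Decr1 (−0.88) and Cpt2 (−0.87), and Acadm had 356 CPM in PT I-PpoI against 637 in wild type (−0.84, and −0.30 in S1-like cells).

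The other mitochondrial members lay nearer to level. Acsm2, a medium-chain synthetase gene, had 1620 CPM in PT I-PpoI, against 1955 CPM in wild type (−0.27). Cpt1a, the gate of the carnitine shuttle, had 59.5 CPM in PT I-PpoI against 92.5 in wild type (−0.63), and the carrier gene Slc25a20 had 18.5 CPM in PT I-PpoI against 21.97 in wild type (−0.23). The carnitine acetyltransferase gene Crat stood at 35.6 CPM in PT I-PpoI against 39.4 in wild type (−0.14). Of the dehydrogenase genes, the very-long-chain Acadvl stood at −0.25, the short-chain Acads at −0.30 and the hydroxyacyl Hadh at −0.14. The hydratase gene Echs1 had 140 CPM in PT I-PpoI against 199 in wild type (−0.50), and the isomerase gene Eci1 94.6 CPM in PT I-PpoI against 145 in wild type (−0.61). The electron transfer genes stood at −0.30 for Etfa, −0.40 for Etfb and 0.00 for Etfdh. Acaa2 stood at 371 CPM in PT I-PpoI against 356 in wild type (0.06) in all PT-like cells but at 429 CPM in PT I-PpoI against 547 in wild type (−0.35) in S1-like cells, where its wild-type level is far above that of S3.

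Hadha and Hadhb encode the 2 subunits of the trifunctional protein and lie on opposite strands, with RefSeq transcript starts 273 bases apart. GENCODE M21 places the gene starts closer together, at chr5:30155162 for Hadha and chr5:30155248 for Hadhb. The Hadha window is shown because it holds most of the region between the RefSeq starts. It lies at chr5:30154931-30155230 on the minus strand, with the 228 bases that it shares with the Hadhb window in capitals.
Hadha: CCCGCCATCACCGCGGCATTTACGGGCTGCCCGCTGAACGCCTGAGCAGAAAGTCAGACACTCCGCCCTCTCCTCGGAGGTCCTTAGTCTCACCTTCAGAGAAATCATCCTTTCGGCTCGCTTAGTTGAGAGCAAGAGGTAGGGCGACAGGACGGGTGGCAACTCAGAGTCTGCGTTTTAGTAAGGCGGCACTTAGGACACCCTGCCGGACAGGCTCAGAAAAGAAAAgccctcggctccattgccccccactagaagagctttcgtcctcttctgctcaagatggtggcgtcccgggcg
In PT-like cells Hadha had 101 CPM in PT I-PpoI, against 81.0 CPM in wild type, 0.33 (0.11 to 0.53), and 0.34 in S1-like cells. Hadhb had 115 CPM in PT I-PpoI against 111 in wild type, 0.06 (−0.14 to 0.25), and 0.07 in S1-like cells. Relative to the TMM shift Hadha stood at 0.01 and Hadhb at −0.26 in PT-like cells.

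The median ratio of peroxisomal members was −0.56 (−1.46 to 0.30) in PT-like and −0.09 in S1-like cells, and their levels summed to 1603 CPM in PT I-PpoI, against 2390 CPM in wild type. Past 2-fold lower were 2 of 10, Ehhadh and Acaa1b. Ehhadh (ENSMUSG00000022853, chr16:21761287-21787807, minus strand) had 55.6 CPM in PT I-PpoI against 154 in wild type, −1.46 (−1.75 to −1.20). In S1-like cells it had 17.6 CPM in PT I-PpoI against 53.7 in wild type (30 UMIs against 649), −1.58 (−2.19 to −1.08), with −1.51 in cluster 7 and −1.44 in cluster 8. T cells had 0 Ehhadh UMIs in PT I-PpoI, against 13 in wild type (0 CPM against 13.5), and subtraction of free RNA left −1.52 in S1-like cells. A single cell held 29.0% of the 114 Ehhadh UMIs of PT I-PpoI PT-like cells. Scp2, which carries and cleaves branched chains, had 842 CPM in PT I-PpoI against 1121 in wild type (−0.41), the importer gene Abcd3 145 CPM in PT I-PpoI against 215 in wild type (−0.56), and Crot 124 CPM in PT I-PpoI against 223 in wild type (−0.84, but −0.07 in S1-like cells). The remaining peroxisomal genes were nearer to level in S1-like cells. Eci2, an isomerase gene, stood at 48.8 CPM in PT I-PpoI against 84.6 in wild type (−0.79, and −0.01 in S1-like cells), and the multifunctional enzyme gene Hsd17b4 at −0.38 (−0.10 in S1-like cells). Pex11a, a gene of peroxisome division, stood at −0.55 (0.28 in S1-like cells) and the reductase gene Decr2 at 0.30 (0.04 in S1-like cells).

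The paired thiolase genes Acaa1a and Acaa1b lay on opposite sides. Acaa1b had 116 CPM in PT I-PpoI, against 346 CPM in wild type, −1.57 (−1.77 to −1.39), whereas Acaa1a (ENSMUSG00000036138, chr9:119339676-119350299, plus strand) had 125 CPM in PT I-PpoI against 66.8 in wild type, 0.91 (0.71 to 1.09). In S1-like cells Acaa1b stood at 64.1 CPM in PT I-PpoI against 100 in wild type (−0.64) and Acaa1a at 131 CPM in PT I-PpoI against 82.2 in wild type (0.68), and against the weighted wild type Acaa1b stood at −0.43 and Acaa1a at 0.76. Their transcripts are alike at 91.9% of aligned bases and at 86.7% within the last 500 bases, where 3′ reads fall, so some reads may not separate them. Their promoters are shown because they are far less alike, with 51.3% of 271 aligned bases identical and a GC content of 53.3% for Acaa1a and 43.7% for Acaa1b. They lie at chr9:119341044-119341343 on the plus strand and chr9:119157044-119157343 on the minus strand, and no part is capitalised. The Acaa1a window stands at a RefSeq start inside the gene, whose outermost start in GENCODE M21 is chr9:119339676.
Acaa1a: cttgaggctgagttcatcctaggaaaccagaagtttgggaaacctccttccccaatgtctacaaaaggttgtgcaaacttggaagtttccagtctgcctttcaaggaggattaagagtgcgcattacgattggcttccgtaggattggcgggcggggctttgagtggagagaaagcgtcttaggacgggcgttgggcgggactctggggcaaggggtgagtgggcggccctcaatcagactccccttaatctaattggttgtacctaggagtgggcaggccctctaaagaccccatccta
Acaa1b: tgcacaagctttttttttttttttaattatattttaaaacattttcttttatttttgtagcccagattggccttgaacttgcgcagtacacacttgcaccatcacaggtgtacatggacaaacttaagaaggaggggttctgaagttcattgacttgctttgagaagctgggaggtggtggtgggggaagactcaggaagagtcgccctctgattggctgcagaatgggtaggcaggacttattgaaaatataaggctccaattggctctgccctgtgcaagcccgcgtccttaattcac
Neither window held the PPAR element within 2 mismatches.

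The regulator genes lay above 0 but short of 2-fold, and the storage gene Mogat1 was past 2-fold lower. Ppargc1a had 95.6 CPM in PT I-PpoI, against 50.04 CPM in wild type, 0.94 (0.71 to 1.15), and 103 CPM in PT I-PpoI against 76.9 in wild type in S1-like cells (0.42). Ppara had 41.9 CPM in PT I-PpoI against 29.1 in wild type, 0.54 (0.19 to 0.85), and 0.33 (−0.05 to 0.68) in S1-like cells. Both were higher in S1-like than in S3-like wild-type cells, and against the weighted wild type Ppargc1a stood at 0.30 and Ppara at 0.24, beside a median of 0.24 over all genes. Pdk4, the kinase that holds back pyruvate oxidation, had 6.34 CPM in PT I-PpoI against 3.91 in wild type, under the minimum. Mogat1 had 14.6 CPM in PT I-PpoI against 88.6 in wild type (30 UMIs against 2948), −2.57 (−3.17 to −2.08), and −0.91 against the weighted wild type at 27.9 CPM. Of the 30 Mogat1 UMIs of PT I-PpoI, 24 came from the 9 cells of cluster 34, so its counting interval is too narrow. In S1-like cells Mogat1 had 2 UMIs in PT I-PpoI against 51 in wild type, under the minimum.

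To compare how many cells carried a gene, PT-like cells were thinned to 2000 UMIs, which left 162 of 170 cells in PT I-PpoI, against 3648 of 5905 in wild type. Lpl was read in 10.5% of them in PT I-PpoI against 49.2% in wild type (unthinned, 24.7% in PT I-PpoI against 51.0% in wild type), and Slc27a2 in 34.6% in PT I-PpoI against 70.4% in wild type. In S1-like cells Lpl was read in 3.60% (1.18 to 8.20) of 139 PT I-PpoI cells against 15.3% (13.6 to 17.2) of 1565 wild-type cells, and Ehhadh in 3.60% in PT I-PpoI against 10.3% in wild type. T cells had median depths of 4333 UMIs in PT I-PpoI, against 2393 in wild type, where PT-like cells had 10829.5 in PT I-PpoI, against 3143 in wild type. Lpl was read in 1.68% of T cells in PT I-PpoI against 13.2% in wild type. For Slc27a2 0 of 119 PT I-PpoI T cells held it, a count that allows a share of up to 2.52%, against 16.5% of wild-type T cells. The Lpl share of S1-like cells is close to that of T cells in both libraries and is not read as a difference. Ehhadh was read in 0% of T cells in PT I-PpoI against 2.56% in wild type. The 0 of 119 T cells in PT I-PpoI allows up to 2.52%, within the interval of 1.18 to 8.20% around the S1-like share of that library, so the shares are not told apart there. Among thinned PT-like cells Ppargc1a was read in 21.6% in PT I-PpoI against 8.61% in wild type and Acaa1a in 19.8% (13.9 to 26.7) in PT I-PpoI against 13.2% (12.1 to 14.3) in wild type. In S1-like cells Ppargc1a was read in 20.1% (13.8 to 27.8) in PT I-PpoI against 12.4% (10.8 to 14.1) in wild type. Acaa1a was read there in 18.7% (12.6 to 26.2) in PT I-PpoI against 14.25% (12.55 to 16.1) in wild type. The intervals overlap for both genes in S1-like cells and for Acaa1a in all PT-like cells.

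Outside the PT, Lpl lay on different sides in different segments. In distal convoluted tubule cells, which reabsorb salt, it had 857 CPM in PT I-PpoI, against 377 CPM in wild type, 1.18 (1.06 to 1.31). It was the one member of 35 past 2-fold higher there, where 1.24% of all genes were. Both clusters of that class gave the same side, at 1.03 and 0.97, and subtraction of free RNA left 1.16. Acsm2, at 2.29 CPM in PT I-PpoI against 91.5 in wild type, and Slc27a2, at 2.06 CPM in PT I-PpoI against 48.4 in wild type, were much further apart there in the other direction. T cells, a measure of free RNA, had 6.44 CPM of Acsm2 in PT I-PpoI against 128 in wild type. For Slc27a2 they had 3.22 CPM in PT I-PpoI against 82.8 in wild type, and the part of free RNA in these 2 values was not tested. In the thick ascending limb Lpl had 921 CPM in PT I-PpoI against 550 in wild type, 0.74 (0.68 to 0.81). Among the 12 classes of at least 50 cells in each library, the highest Lpl level was that of the thick ascending limb in PT I-PpoI but that of the PT in wild type. Among smaller classes, podocytes had 698 CPM in PT I-PpoI against 1185 in wild type, with 45 cells in PT I-PpoI against 18 in wild type. In connecting tubule cells Lpl stood at 71.9 CPM in PT I-PpoI against 163 in wild type (−1.18) and in principal cells at 22.6 CPM in PT I-PpoI against 51.0 in wild type (−1.18), and after subtraction principal cells kept 6.82 CPM in PT I-PpoI against 0 in wild type (8.26 against 5.404 with the low-barcode profile).

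Among the 12 classes, Cd36 had its highest levels in PT, endothelial and macrophage cells. Natural killer cells, a smaller class with 12 cells in PT I-PpoI against 97 in wild type, had 971 CPM in PT I-PpoI against 136 in wild type (60 UMIs against 53). Macrophages had 174 CPM in PT I-PpoI, against 73.7 CPM in wild type, 1.24 (0.94 to 1.55), and 1.22 after subtraction. It was the one member of 31 past 2-fold higher in macrophages, where 4.92% of all genes were. Endothelial cells as a class had 135 CPM in PT I-PpoI against 190 in wild type (−0.49), but their clusters disagreed, with cluster 12 at 311 CPM in PT I-PpoI against 207 in wild type (0.58) and cluster 14 at 674 CPM in PT I-PpoI against 447 in wild type (0.59) but cluster 10 at 43.4 CPM in PT I-PpoI against 109 in wild type (−1.34) and cluster 13 at 8.98 CPM in PT I-PpoI against 23.3 in wild type (−1.34).

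Among 12 classes of at least 50 cells per library, Acaa1a was higher in PT I-PpoI in 11, with an interval above 0 in 9 and a range of −0.01 to 0.91. Endothelial cells had 71.4 CPM in PT I-PpoI against 43.7 in wild type (0.71), mural cells 86.3 CPM in PT I-PpoI against 46.3 in wild type (0.89) and intercalated cells 80.6 CPM in PT I-PpoI against 51.7 in wild type (0.64). Ppargc1a was higher in 9 of 11 classes with the minimum, at 313 CPM in PT I-PpoI against 220 in wild type in the thick ascending limb (0.51) and 197 CPM in PT I-PpoI against 114 in wild type in the thin limb (0.78). Its highest ratio was in mural cells, with 57.8 CPM in PT I-PpoI against 25.2 in wild type (61 UMIs against 18), 1.17 (0.42 to 2.04). It was the only member of 34 past 2-fold higher in mural cells, where 6.32% of all genes were. Scp2 was lower in 12 of 12 classes and below 0 by its interval in 8. It is abundant in wild-type PT-like cells (1121 CPM), and the part of free RNA, whose estimates differed between the libraries, in its values was not tested. Hadhb and Echs1 were each higher in 11 of 12 classes, with an interval above 0 in 6 for Hadhb and 4 for Echs1, but in 8 of 12 relative to the TMM shift of each class. That shift left the counts of Acaa1a, Ppargc1a and Scp2 as they were. Pdk4 stood at 32.1 CPM in PT I-PpoI against 99.5 in wild type in distal convoluted tubule cells (−1.63), yet near level within their clusters, at −0.43 and 0.08. Cluster 16, which Pdk4 leads, held 36 of 568 such cells in PT I-PpoI, against 57 of 303 in wild type.

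Slc27a2, Acsm2 and Acaa1b were lower in PT I-PpoI in 12 of 12 classes, also relative to the TMM shift. In the thick ascending limb Acsm2 had 5.88 CPM in PT I-PpoI, against 112 CPM in wild type, and 0 in both after free RNA was subtracted, but 0 in PT I-PpoI against 21.8 in wild type with the low-barcode profile. In T cells 9 of 30 members were past 2-fold lower, where 7.21% of all genes were, and after subtraction Acadm kept 43.0% of its wild-type UMIs and the other 8 kept 0 to 24.8% (0 to 38.8% with the low-barcode profile).

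**Figure D4:**
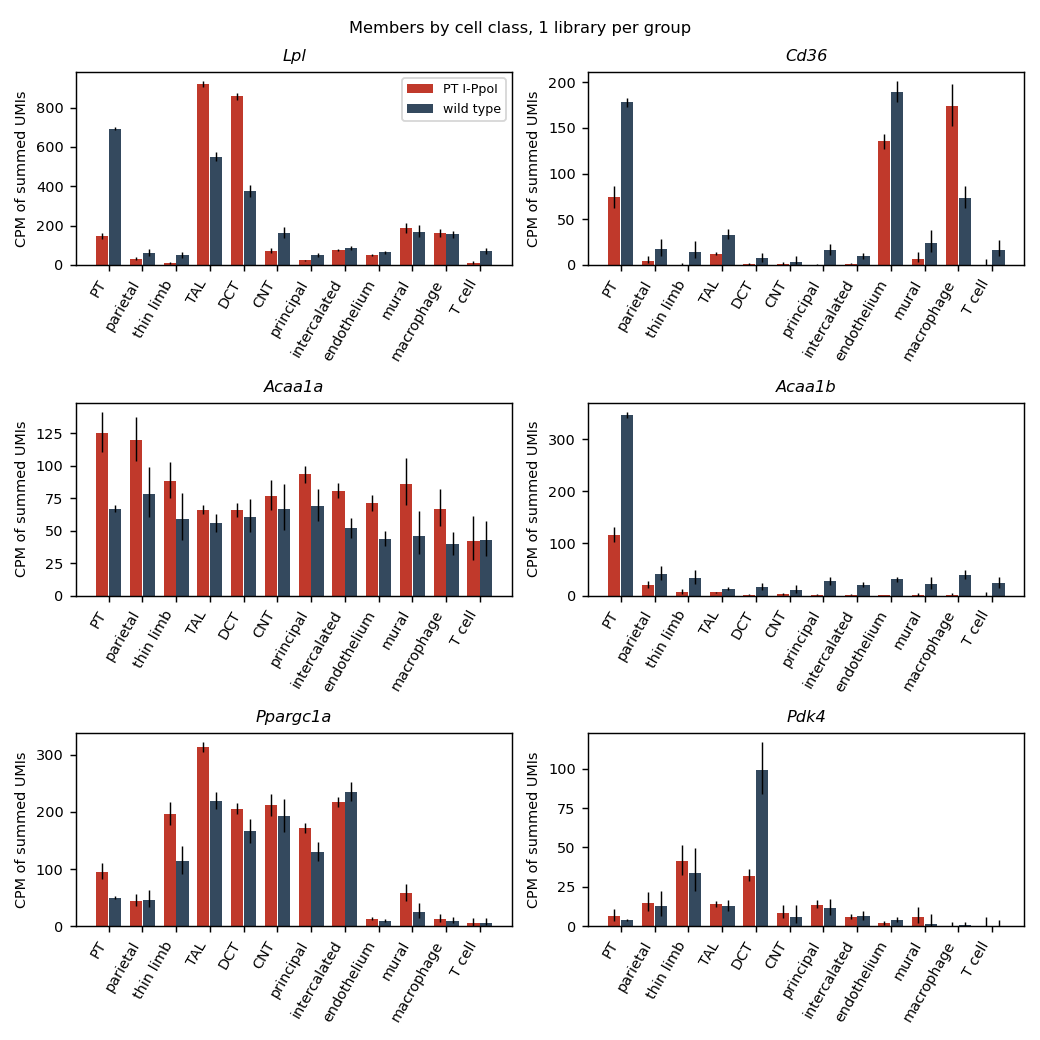
CPM of 6 members in 12 cell classes, with PT I-PpoI in red left of wild type in dark blue and bars for exact Poisson 95% intervals. Lpl is lower in the PT (146 CPM in PT I-PpoI against 693 in wild type) and higher in the distal convoluted tubule (857 CPM in PT I-PpoI against 377 in wild type), while Acaa1a is higher in 11 of 12 classes.

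The wider pathway was described with 192 other genes of fatty acid metabolism, of which 144 had the minima in PT-like cells. Of these 8 were past 2-fold higher, where 7.56% of all genes were, and 22 lower, where 2.96% of all genes were. Their median was −0.12, beside 0.34 over all genes with 10 UMIs. In S1-like cells 2 of 136 were higher, where 3.35% of all genes were, and 6 lower, where 0.892% of all genes were, with a median of 0.05 beside 0.25 over all genes. Omega-oxidation and thioesterase genes had 0 higher and 8 lower of 16. The omega-hydroxylase gene Cyp4a14 had 3 UMIs in PT I-PpoI, against 1912 in wild type (1.46 CPM against 57.5), −5.07 (−7.57 to −3.75), and Cyp4a10 30.7 CPM in PT I-PpoI against 165 in wild type (−2.41, and −2.31 in S1-like cells). Other peroxisomal genes had 1 higher and 7 lower of 37, with Mpv17l at 78.5 CPM in PT I-PpoI against 240 in wild type (−1.61) and the oxidase gene Acox2 at −1.56, whereas 0 of 36 were past 2-fold in S1-like cells, Hao2 lying closest at −0.999.

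Other beta-oxidation genes had 3 higher and 1 lower of 31 in PT-like cells, close to the shares over all genes, and Nudt19, a peroxisomal CoA hydrolase gene, had 173 CPM in PT I-PpoI against 529 in wild type (−1.61). Ketone body genes had 1 higher and 2 lower of 8, with the carrier gene Slc16a1 at 142 CPM in PT I-PpoI against 62.4 in wild type (1.19). Fatty acid binding and droplet genes had 2 higher and 0 lower of 24, likewise close to the shares over all genes, with the binding protein gene Fabp3 at 218 CPM in PT I-PpoI against 89.9 in wild type (1.28, but 0.30 in S1-like cells). Regulators had 1 higher and 4 lower of 24, with the receptor gene Ppard at 11.7 CPM in PT I-PpoI against 36.3 in wild type (−1.60) and Txnip, which curbs glucose uptake, at 60.5 CPM in PT I-PpoI against 23.0 in wild type (1.40, and 1.40 in S1-like cells). Carnitine supply genes had 0 past 2-fold of 4.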

How the data were processed

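The deposited files hold raw UMI counts, as 1 unfiltered matrix per library, made by the authors and not normalized. Per the labels' protocols, cells came from enzyme-digested kidney cortex and libraries from the 10x 3′ v3.1 kit. Cell Ranger 3.1, Seurat 3 and mm10 are named in the submitters' processing notes, whereas Cell Ranger 4 is named per the file headers. Members and lists were chosen with earlier results of these data known.

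Cells were called by depth or by a Monte Carlo test against barcodes ranked 45001 to 90000, at 500 or more UMIs, and kept with 200 or more genes and at most 50% mitochondrial UMIs. Scrublet removed 81 doublets from PT I-PpoI and 275 from wild type. Clusters (Leiden, resolution 1, scanpy 1.11.5) were made without the members among the variable genes and named from markers, so class names end in -like where first given. UMIs were summed per class and library as CPM. Each ratio has a prior of 0.5 count and an exact conditional binomial 95% interval, levels carry Poisson and shares Clopper-Pearson intervals, and a share of 0 is limited at 3 counts. The ratio computation was tested on simulated data. TMM factors came from edgeR 4.0.16 and size factors from DESeq2 1.42.0, with no test run. Free RNA was estimated per class from genes of other classes and subtracted as an alternative.

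All members were accounted for, with full values for those past 2-fold and for the highest in each role group. Outside the PT up to 4 members per class of 50 CPM and 20 UMIs or more were named, those furthest from 0, and up to 3 genes per pathway list. The value of 1 pathway gene is not reported here. Clusters with a look of their own, the members followed over all classes and the wild-type contrast of segments were chosen after their values were seen. Coordinates and promoter windows are from GENCODE M21 and RefSeq (GRCm38.p6), with 33 of 38 members matched to a window.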

Additional observations from a re-analysis of the deposited data

Results flagged for a closer look

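Lpl lay on opposite sides in different classes. It was higher in PT I-PpoI in distal convoluted tubule cells, at a log2 ratio of 1.18, and lower in PT-like cells at −2.25, in T cells at −2.74, in connecting tubule cells at −1.18 and in principal cells at −1.18. Levels were 857 CPM in PT I-PpoI and 377 CPM in wild type in the distal convoluted tubule, and 146 CPM in PT I-PpoI against 693 CPM in wild type in PT-like cells. After free RNA was subtracted, 24.8% of the wild-type Lpl UMIs were left in T cells, and principal cells kept 6.82 CPM in PT I-PpoI against 0 in wild type. With the low-barcode profile these values were 32.8%, and 8.26 CPM in PT I-PpoI against 5.404 in wild type.

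Cd36 was higher in PT I-PpoI in macrophages, at 1.24, and lower in PT-like cells, at −1.26. Each of these differences between classes comes from 1 library per group and was not tested. In PT-like cells the Cd36 value turned to 0.26 once wild-type clusters were weighted alike.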

How the results depend on the processing

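No paired analysis was possible because each group has 1 library. Medians of the uptake, mitochondrial and peroxisomal members in PT-like cells stayed below 0 under every alternative run but 1, and ranged from −1.59 to −0.37 for uptake and from −0.88 to −0.06 for peroxisomal members. The exception was the mitochondrial median, 0.030 when wild-type clusters were weighted to the PT I-PpoI shares, against −0.30. That weighting left 0 members past 2-fold lower and turned Cd36 to 0.26, against −1.26. Of the 8 members past 2-fold lower, each stayed so under 10 of 11 alternatives. The count was 13 with TMM factors, where 4.78% of all genes were, 13 with DESeq2 size factors (4.83%) and 13 with free RNA subtracted by the ranked profile (4.24%), but 8 with the low-barcode profile (3.41%). Members past 2-fold higher were 2 at a mitochondrial limit of 30% (10.7% of all genes) and 1 with CPM averaged over cells (19.9%), against 0 (7.56%). The S1-like median was −0.35 with DESeq2 size factors, against −0.12. Median shares of cells with a UMI were 7.23% for PT I-PpoI and 12.5% for wild type thinned to 1000 UMIs, against 14.2% and 22.9% at 2000. Leaving out the unresolved PT-like cluster, an alternative chosen after the data were seen, gave medians of −1.29, −0.30 and −0.57 for uptake, mitochondrial and peroxisomal members. The weighting sets the wild-type mix to that of PT I-PpoI, and the cause of these shifts was not tested. With 170 PT-like cells in PT I-PpoI, S2-like and S3-like values could not be compared.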

Other observations

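Lpl stood at 277 CPM in PT I-PpoI and 39.3 CPM in wild type (257 and 40 UMIs, a log2 ratio of 2.80) in cluster 18, which stayed unnamed and is led by Cd209a and Ear2, with Flt3 among its leading genes. It held 101 cells of PT I-PpoI and 240 of wild type. This cluster was singled out after its values were seen.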
